A study of Mus musculus with 72 samples.

Results

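Transcript levels of 49 genes were followed, out of 20239 named genes measured on the same arrays. They were all genes whose symbol starts with Psma, Psmb, Psmc, Psmd, Psme, Psmf or Psmg and a number. Of these, 47 encode parts, activators, inhibitors or assembly chaperones of the proteasome. The other 2 encode none of these, namely Psmc3ip, a meiotic recombination cofactor, and Psme3ip1, which encodes a partner protein of the activator Psme3. The whole-transcript arrays came from a study of muscle that lacks the clock activator Bmal1. RNA was taken from the soleus (SOL), a slow muscle, and from the fast tibialis anterior (TA) of 36 males of the C57BL/6 strain at 5 months of age. In 18 knockout mice (mKO) floxed Bmal1 met a Cre recombinase driven by the Mlc1f promoter, which is active in muscle fibres, and 18 Cre-negative littermates were the controls (Ctrl). Both muscles of an animal were frozen at 1 of 6 Zeitgeber times (ZT), every 4 h, where light began at ZT0 and dark at ZT12. This makes 24 groups with 3 arrays each. Controls carried no Cre, so that Cre itself and the loss of Bmal1 cannot be told apart. Whole muscles were used, in which fewer cells of a type and less RNA per cell cannot be told apart. All values are log2 signals, and a difference of log2 signals is called a difference below.

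The proteasome degrades proteins that carry ubiquitin chains. Its 20S core is a barrel of outer alpha rings (Psma genes) and inner beta rings (Psmb genes), and the catalytic sites lie on 3 kinds of beta subunit. The 19S cap binds and unfolds substrates with a ring of ATPases (Psmc genes) and a set of non-ATPase subunits (most Psmd genes). In immune cells and under interferon, Psmb8, Psmb9 and Psmb10 take the place of the standard catalytic beta subunits Psmb5, Psmb6 and Psmb7. Psme1 and Psme2, Psme3, and Psme4 encode alternative activators of the core, Psmf1 an inhibitor, and Psmg1 to Psmg4 with Psmd5, Psmd9 and Psmd10 chaperones that help to assemble it. In muscle the pathway is best known for protein breakdown during wasting.

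The standard subunits among the 49 genes numbered 30, namely 7 alpha, 6 beta, 6 ATPase and 11 non-ATPase subunits, and are called the constitutive subunits here. Psmb5 was not analysed here. Of the 49 genes, 45 had a mean signal above the median of all genes. The 4 below it were Psma8 and Psmb11, the subunits known from testis and thymus, the chaperone gene Psmg3, and Psmc3ip.

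The arrays carried the marks of both muscles. All 6 genes of slow fibres, such as Myh7, were lower in TA than in SOL of Ctrl, by a median of -6.23, and all 7 genes of fast fibres were higher, by a median of 0.70. The transcript of the targeted gene, Arntl, does not check the deletion, since the sources used here do not say where its probes lie against the floxed part. Its group means ran from 6.56 to 9.11 in SOL of Ctrl and from 7.33 to 8.44 in SOL of mKO. In TA they ran from 7.01 to 9.22 in Ctrl and from 7.71 to 8.43 in mKO. The animal numbers fell into 3 series, with 23 animals in BM3, 7 in BM2* and 6 in BM2, and the labels do not give their meaning. At ZT20 all mKO animals were BM2 and all Ctrl animals BM3, so that series and genotype cannot be told apart there. Liver transcripts were high in TA of Ctrl ZT0 replicate A, where the signal of 10 liver genes summed to 15.0 against a median of 9.59 in TA of Ctrl. Leaving that animal out kept each of the counts of genotype calls below within 1.5 times its value.

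In SOL, 12 of the 49 genes were higher in mKO and 0 were lower at an adjusted p under 0.05 (limma, Benjamini-Hochberg over all genes). Among all genes 3.56% were called higher and 3.54% lower. Without adjustment, 21 members were higher and 2 lower at p under 0.05. The calls fell on the core more than on the cap in number, with 7 of 13 constitutive core subunits (Psma1, Psma3, Psma5, Psma7, Psmb1, Psmb3 and Psmb7) and 4 of 17 cap subunits (Psmc3, Psmc4, Psmd8 and Psmd14); the difference between core and cap was not tested. The remaining call was Psmd5, a chaperone of cap assembly. The differences were small. The median over the 49 genes was 0.078, against 0.00091 over all genes, and 44 of the 49 were above 0, as were 50.6% of all genes.

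Psma5, an alpha ring subunit, had the smallest p in SOL. Its signal ran from 6.43 to 7.11 with a median of 6.71 on the 18 Ctrl arrays, and from 6.67 to 7.76 with a median of 6.92 on the 18 mKO arrays. The sets overlapped, and the 3 highest mKO arrays were those of ZT20. The difference was 0.29 ± 0.059 (SE over 18 animals of each genotype, limma adjusted p = 0.00103), or 22.1%, with a positive sign at 5 of 6 times. Without the ZT20 animals, the difference of Psma5 was 0.18 (limma adjusted p = 0.117), and it was 0.17 within BM3 animals and within the other series.

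Psmc3, an ATPase of the cap, ran from 9.22 to 9.55 with a median of 9.40 in SOL of Ctrl, and from 9.36 to 9.68 with a median of 9.56 in SOL of mKO. The difference was 0.15 ± 0.034 (limma adjusted p = 0.00377), positive at 6 of 6 times. Psmd8, a non-ATPase subunit of the cap, ran from 10.27 to 10.61 with a median of 10.50 in SOL of Ctrl, and from 10.50 to 10.81 with a median of 10.64 in mKO. The Ctrl and mKO arrays of both genes overlapped, and both kept their call with the animals of any 1 time left out. The difference of Psmd8 was 0.15 ± 0.033 (limma adjusted p = 0.00199), also at 6 of 6 times.

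Of the other called genes in SOL, Psma3 rose by 0.24 ± 0.062 (limma adjusted p = 0.0118), the beta subunit Psmb3 by 0.15 ± 0.040 (adjusted p = 0.0140) and the catalytic Psmb7 by 0.15 ± 0.040 (adjusted p = 0.0164). Psmd5 rose by 0.17 ± 0.046 (adjusted p = 0.0177) and Psmd14, the deubiquitinase of the cap, by 0.15 ± 0.042 (adjusted p = 0.0231). Psmb1, Psma1, Psmc4 and Psma7 rose by 0.12, 0.15, 0.12 and 0.16. These last 4 were near the threshold. The call of Psmb1 was lost without mKO ZT0 replicate A, mKO ZT20 replicate C or Ctrl ZT20 replicate C, where its adjusted p reached 0.0521 at most. The calls of Psma1, Psmc4 and Psma7 were lost on leaving out any 1 of 17, 16 and 22 of the 36 animals, with adjusted p up to 0.0670, 0.0717 and 0.0887. With the animals of 1 time left out, the count of members higher in SOL was 8 without ZT0, 7 without ZT4, 6 without ZT8, 12 without ZT12, 5 without ZT16 and 4 without ZT20. Of the 12, Psmd8, Psmc3, Psma3 and Psmb3 were the 4 called without ZT20.

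The SOL subunits that were not called were Psma2, Psma4 and Psma6 in the alpha rings, at -0.0076, 0.033 and 0.052, and Psmb2, Psmb4 and Psmb6 in the beta rings, at 0.019, 0.042 and 0.10. The 13 cap subunits that were not called lay between 0.017 and 0.12. In SOL of mKO the slow fibre genes Myh7, Tnnt1 and Tnnc1 were lower by -0.11, -0.17 and -0.11. The fast fibre genes split, with Mylpf higher by 0.42 and Actn3 lower by -0.80, and the endothelial gene Kdr was higher by 0.22. Above 0 were 0 of 6 slow fibre genes, 4 of 7 fast fibre genes and 5 of 6 endothelial genes, with Kdr the 1 endothelial call. The summed signal of the 6 slow fibre genes ran from 15.6 to 15.8 in Ctrl and from 15.5 to 15.8 in mKO, that of the 7 fast fibre genes from 15.2 to 15.6 in both, and that of 6 endothelial genes from 12.0 to 12.5 and from 12.1 to 12.6. The part of fibre type and of other cells in the proteasome differences was not tested.

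**Figure D1:**
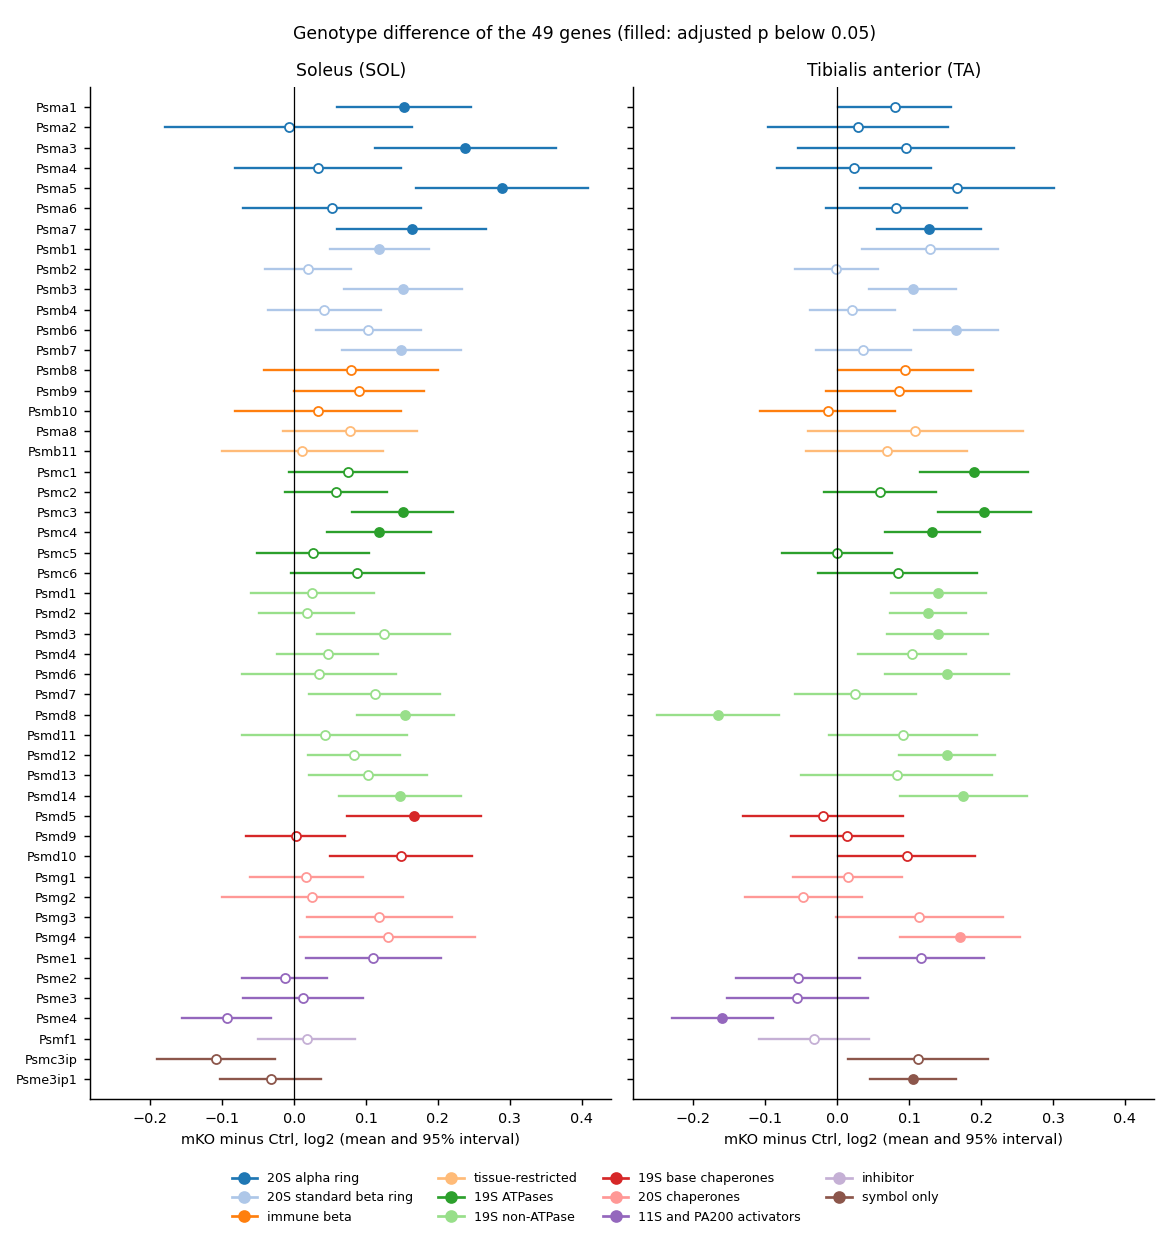
Difference between mKO and Ctrl in log2 signal (x axis) for each of the 49 genes (rows, coloured by role) in SOL and TA, as the mean over 6 times with its 95% interval; filled points passed the adjusted threshold. Of 30 constitutive subunits, 29 lie above 0 in SOL and 27 in TA, with Psmd8 on opposite sides.

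In TA, 14 genes were higher in mKO and 2 were lower, where 6.76% of all genes were called higher and 8.06% lower. Here the cap led in number. The higher genes included 9 of 17 constitutive cap subunits (Psmc1, Psmc3, Psmc4, Psmd1, Psmd2, Psmd3, Psmd6, Psmd12 and Psmd14) and 3 of 13 core subunits (Psma7, Psmb3 and Psmb6). Psmg4, a chaperone of core assembly, and Psme3ip1 were the other two. The lower genes were Psmd8 and Psme4, a share below that over all genes. The median over the 49 genes was 0.091, against 0.020 over all genes, and 39 of the 49 were above 0, as were 59.0% of all genes.

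In TA, Psmc3 ran from 9.55 to 9.78 with a median of 9.66 on the Ctrl arrays, and from 9.56 to 10.03 with a median of 9.89 on the mKO arrays. All but 1 of the mKO arrays were above the Ctrl median, as the plot of signals on each array shows. The difference was 0.20 ± 0.031 (limma adjusted p = 1.38e-05), or 15.2%, at 6 of 6 times.

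Psmb6, a catalytic beta subunit, ran from 10.07 to 10.42 with a median of 10.33 in TA of Ctrl, and from 10.37 to 10.68 with a median of 10.47 in TA of mKO. The sets overlapped only between 10.37 and 10.42. The difference was 0.16 ± 0.028 (limma adjusted p = 7.2e-05), at 6 of 6 times.

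Psmc1, an ATPase of the cap, ran from 9.25 to 9.67 with a median of 9.49 in TA of Ctrl, and from 9.46 to 9.87 with a median of 9.72 in TA of mKO. Its sets overlapped over a wider range than those of Psmb6. The difference was 0.19 ± 0.037 (limma adjusted p = 0.000346), at 6 of 6 times.

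Of the next genes in TA, Psmd2 and Psmd1, the large scaffold subunits of the cap base, rose by 0.13 ± 0.026 (limma adjusted p = 0.000678) and 0.14 ± 0.032 (adjusted p = 0.00206). Psmd12, a lid subunit, rose by 0.15 ± 0.032 (adjusted p = 0.00103) and Psmg4 by 0.17 ± 0.041 (adjusted p = 0.00353). The remaining higher genes, Psmc4, Psmd14, Psmd3, Psme3ip1, Psmd6, Psma7 and Psmb3, rose by 0.11 to 0.18. The 6 alpha subunits that were not called lay between 0.023 and 0.17, and Psmb1, Psmb2, Psmb4 and Psmb7 stood at 0.13, -0.0014, 0.021 and 0.036. The 7 cap subunits that were not called lay between -0.00051 and 0.10. With the animals of 1 time left out, the count of higher genes lay between 13 and 16 and the count of lower genes was 2 each time. In TA of mKO the fast light chain gene Mylpf was higher by 0.27 and the slow light chain gene Myl3 by 0.44. The satellite cell gene Cdh15 was higher by 0.16 and the fibroblast gene Dcn lower by -0.15. Each was the 1 called gene of its list, and the lists did not all follow them. Above 0 were 2 of 7 fast fibre genes, 5 of 6 slow fibre genes, 2 of 3 satellite cell genes and 2 of 5 fibroblast genes. The summed signal of 3 satellite cell genes ran from 8.91 to 9.15 in Ctrl and from 8.98 to 9.29 in mKO, and that of 5 fibroblast genes from 12.9 to 13.2 and from 12.7 to 13.1. The slow fibre genes summed to between 9.86 and 10.9 in Ctrl and 10.0 and 10.9 in mKO, and the fast fibre genes to between 16.2 and 16.3 and between 16.2 and 16.4. The part of these cells and fibres was not tested.

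The 250 bases before the gene start were read for 41 of the 49 genes from the RefSeq promoter table of GRCm38.p6. The others are Psma8, Psmb1, Psmb2, Psmb7, Psmc3, Psmd3, Psmd7 and Psmg2. These 4 patterns were searched on both strands, the antioxidant response element core TGACNNNGC, which Nfe2l1 and Nfe2l2 are known to bind, the E-box CACGTG of clock factors, the NF-Y box CCAAT and the interferon response element. The share of the 41 genes with the antioxidant core was 9.76% (4 genes) against 11.5% of 27025 genes in the table, and with the NF-Y box 39.0% (16 genes) against 37.5%. With the E-box it was 12.2% (5 genes, Psma4, Psmb10, Psmd9, Psme3 and Psme3ip1) against 6.86%, and with the interferon element 7.32% (3 genes, Psmb3, Psmd4 and Psmd9) against 3.46%. Of the 41 genes, 24 were constitutive subunits. Among these 24, the share with the E-box was 4.17% (1 gene) and with the antioxidant core 12.5%. With the NF-Y box it was 41.7%, and with the interferon element 8.33%. The differences in share were not tested. A match is a description of letters and no site of binding. The 4 sequences below belong to the members with a match and the smallest genotype p, all called higher in TA of mKO, and the capitals mark the match. Psmb6 (chr11:70525107-70525356, plus strand) and Psmd12 (chr11:107479278-107479527, plus strand) hold the antioxidant core, Psmd12 on the reverse strand. It starts 9 bases before the gene start in Psmb6 and 247 bases before it in Psmd12. Psmc1 (chr12:100109952-100110201, plus strand) and Psmd14 (chr2:61711444-61711693, plus strand) hold the NF-Y box, 175 and 159 bases before the start, in Psmd14 on the reverse strand.
Psmb6: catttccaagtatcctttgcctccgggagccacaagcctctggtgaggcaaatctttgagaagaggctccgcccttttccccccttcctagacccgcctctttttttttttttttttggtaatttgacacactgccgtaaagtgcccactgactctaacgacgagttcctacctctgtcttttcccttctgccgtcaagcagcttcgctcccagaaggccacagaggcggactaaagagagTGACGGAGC
Psmc1: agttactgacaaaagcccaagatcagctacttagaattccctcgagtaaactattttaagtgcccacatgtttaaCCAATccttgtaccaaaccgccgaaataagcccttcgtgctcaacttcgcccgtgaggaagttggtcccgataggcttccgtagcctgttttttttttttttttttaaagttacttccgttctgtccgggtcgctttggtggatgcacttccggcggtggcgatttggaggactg
Psmd12: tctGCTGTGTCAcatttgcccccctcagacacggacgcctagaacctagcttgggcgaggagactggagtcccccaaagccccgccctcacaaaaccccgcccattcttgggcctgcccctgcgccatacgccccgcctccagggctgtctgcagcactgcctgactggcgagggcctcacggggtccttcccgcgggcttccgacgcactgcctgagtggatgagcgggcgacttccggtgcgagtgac
Psmd14: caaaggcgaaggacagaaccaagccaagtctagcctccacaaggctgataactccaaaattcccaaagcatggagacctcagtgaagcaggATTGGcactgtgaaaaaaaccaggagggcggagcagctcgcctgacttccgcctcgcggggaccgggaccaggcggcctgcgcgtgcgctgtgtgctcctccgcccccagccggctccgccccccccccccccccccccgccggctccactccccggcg

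Psme4 encodes PA200, a large single-chain cap that can replace the 19S cap. In TA it ran from 11.25 to 11.66 with a median of 11.44 in Ctrl, and from 11.14 to 11.45 with a median of 11.30 in mKO. The sets overlapped, with mKO lower at 6 of 6 times. Psme4 fell by 0.16 ± 0.034 (limma adjusted p = 0.00123) in TA of mKO, or by 10.5%. In SOL the difference was -0.093 ± 0.030 (adjusted p = 0.0577), with mKO lower at 5 of 6 times. The test of the difference between muscles gave -0.066 (adjusted p = 0.645). Within BM3 animals Psme4 stood at -0.098 in SOL and -0.13 in TA, and within BM2 and BM2* animals at 0.020 and -0.13, so that its sign in SOL turned in one of the series.

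**Figure D2:**
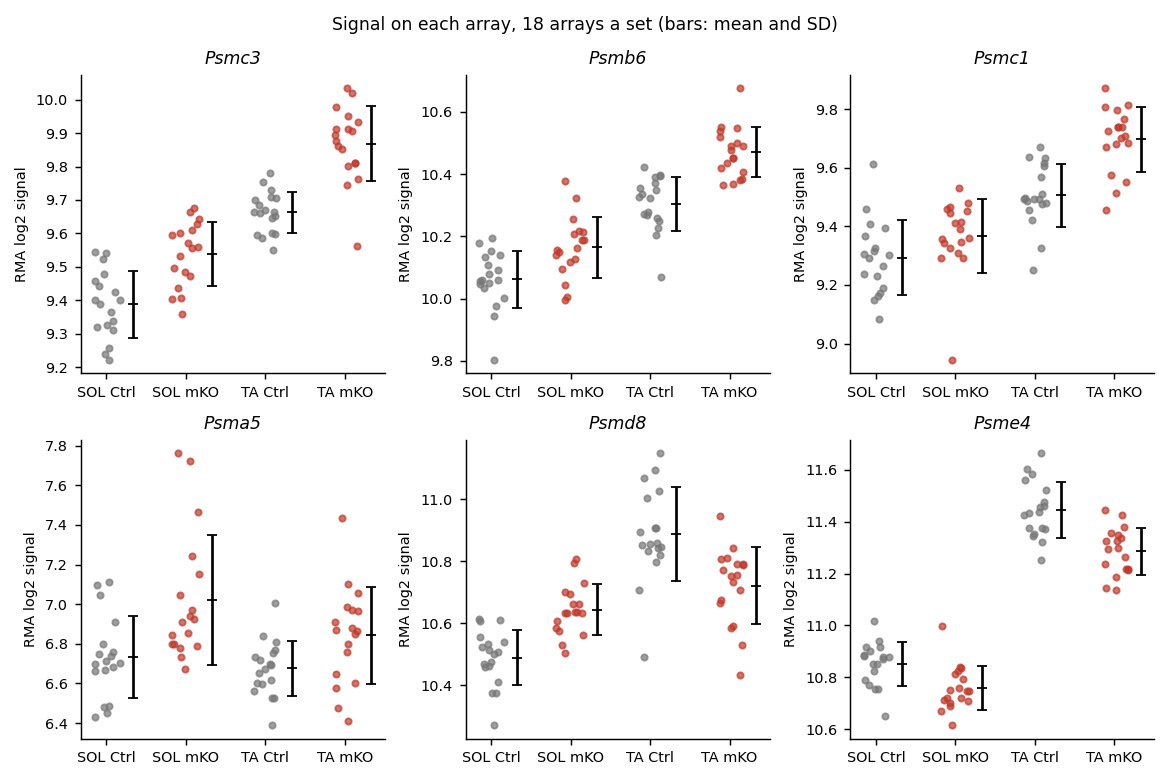
RMA log2 signal (y axis) of Psmc3, Psmb6, Psmc1, Psma5, Psmd8 and Psme4 on each of the 18 arrays of SOL and TA from Ctrl (grey) and mKO (red), with the mean and SD of each set beside it. Psmc3 is higher in mKO in both muscles, Psmd8 is higher in mKO in SOL and lower in TA, and Psme4 is higher in TA than in SOL on each of the arrays.

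Psmd8 was the only one of the 49 genes whose genotype difference was itself called different between the muscles. In TA it ran from 10.49 to 11.15 with a median of 10.86 in Ctrl, and from 10.43 to 10.95 with a median of 10.75 in mKO. The sets overlapped, with mKO lower at 6 of 6 times in TA where it had been higher at 6 of 6 times in SOL. Psmd8 fell by 0.17 ± 0.042 (limma adjusted p = 0.00518) in TA of mKO, against the rise of 0.15 in SOL. The genotype difference in TA minus that in SOL, taken within animals, was -0.32 ± 0.059 (limma adjusted p = 0.000844). Among all genes, 1.20% had a genotype difference called more positive in TA and 1.52% more negative, so 1 call among 49 genes is near the share over all genes. Without adjustment, 5 of the 49 genes were more positive in TA and 3 more negative at p under 0.05. Within BM3 animals Psmd8 differed by 0.13 in SOL and -0.18 in TA, and within BM2 and BM2* animals by 0.14 and -0.13. The difference between muscles was -0.31 and -0.27 in these series, and was not called in either of them. TA exceeded SOL by 0.40 in Ctrl (limma adjusted p = 1.84e-09) and by 0.077 in mKO (adjusted p = 0.132).

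Psma7, Psmb3, Psmc3, Psmc4 and Psmd14 were called higher in mKO in both muscles. These 5 genes are 41.7% of the SOL list and 35.7% of the TA list, and 21 genes were called higher in at least 1 muscle. Over all genes, those called higher in both muscles were 60.3% of the SOL list and 31.7% of the TA list, so the overlap is not a feature of the members. Of the 49 genes, 36 (73.5%) were above 0 in both muscles, 26 of them constitutive subunits, against 37.8% of all genes. Both muscles came from the same animals.

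At each single time most constitutive subunits were higher in mKO. In SOL the count out of 30 was 24 at ZT0, 27 at ZT4, 23 at ZT8, 26 at ZT12, 26 at ZT16 and 24 at ZT20. In TA it was 23, 23, 26, 22, 28 and 25 at the same times. Over all genes between 44.6% and 62.3% were higher in mKO at a single time. The mean signal of the 30 subunits in SOL was 9.84 ± 0.058 (SD, n = 18) for Ctrl and 9.94 ± 0.059 for mKO. In TA it was 10.0 ± 0.053 in Ctrl and 10.1 ± 0.072 in mKO. Over the day the sets overlapped, since the SOL arrays ran from 9.73 to 9.95 in Ctrl and from 9.80 to 10.03 in mKO. Within a time, the 3 mKO arrays were all above the 3 Ctrl arrays at 3 of 6 times in SOL (ZT4, ZT8 and ZT20) and at 4 of 6 times in TA (ZT4, ZT8, ZT16 and ZT20). At ZT20 series and genotype cannot be told apart. At ZT16 the mKO animals were all BM3, while the Ctrl animals were of BM2* and BM3. This mean is a description and was not tested.

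**Figure D3:**
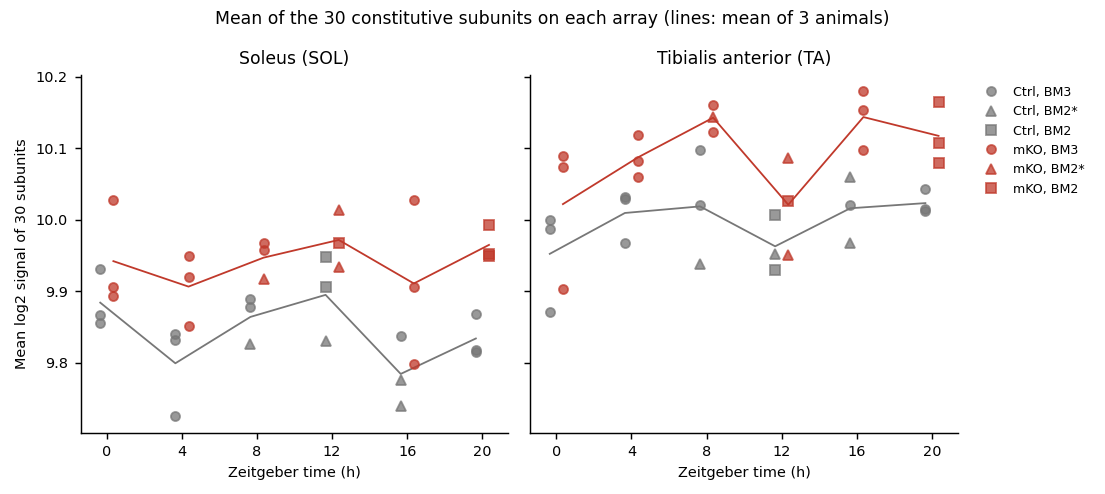
Mean log2 signal of the 30 constitutive subunits (y axis) on each array against Zeitgeber time in hours (x axis), for SOL and TA; colours mark genotype, symbols the identification series, and lines join the means of 3 animals. The mKO line lies above the Ctrl line at each time in both muscles, with the smallest gap at ZT0 in SOL and at ZT12 in TA.

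Within the identification series the genes called higher kept their sign, and in SOL each lost its call. They were picked by a test on the same animals, so a kept sign is no independent check. In SOL all 12 called genes were above 0 within BM3 animals (12 Ctrl and 11 mKO) and within BM2 and BM2* animals (6 and 7), and 0 of them were called in either. These fits used additive terms for genotype and time, so a time with a single genotype adds nothing to the genotype difference. That was ZT20 in BM3, and ZT16 and ZT20 in BM2 and BM2*, where only ZT8 and ZT12 held both genotypes. The differences thus rest on fewer animals than these numbers. In SOL 7 of the 12 differences were more than 1.5 times smaller within BM2 and BM2* animals, with Psmd5 at 0.033, Psmd14 at 0.034, Psmb1 at 0.043, Psma7 at 0.046, Psmb3 at 0.053, Psma1 at 0.071 and Psma5 at 0.17. Within BM3 animals this held for Psma5 alone. In TA it held for Psmc3 (0.10) and Psmb3 (0.065) within BM2 and BM2* animals and for Psmg4 (0.11) within BM3 animals. In SOL, within BM3 animals and within the others, 1.18% and 0.425% of all genes were called higher. In TA all 14 higher genes were above 0 in both series, and 8 of them were called within BM3 and 0 within BM2 and BM2*, where 4.23% and 0.820% of all genes were called higher. Of the 30 constitutive subunits, 28 were above 0 in SOL and 25 in TA in each of the series. Their median difference was 0.078 and 0.072 in SOL and 0.10 and 0.11 in TA, against 0.0026, 0.0039, 0.026 and -0.0059 over all genes. Centring each array on its median, or quantile normalisation, left 29 constitutive subunits above 0 in SOL and 27 or 28 in TA.

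Of the 15 immune, activator, inhibitor and chaperone genes, 1 was called in SOL (Psmd5, 6.67% of them) and 2 in TA (Psmg4 and Psme4, 13.3%). These shares were near the 7.10% and 14.8% of all genes called in either direction. None of Psmb8, Psmb9 and Psmb10 was called in either muscle, and without adjustment only Psmb8 in TA had a p under 0.05. Psmb8 ran from 6.52 to 6.96 with a median of 6.80 in SOL of Ctrl and from 6.54 to 7.37 with a median of 6.84 in SOL of mKO. In TA it ran from 6.58 to 7.05 with a median of 6.85 in Ctrl and from 6.75 to 7.16 with a median of 6.93 in mKO. The sets overlapped nearly throughout, and the differences were 0.080 (95% interval from -0.041 to 0.20) in SOL and 0.095 (from 0.00093 to 0.19) in TA.

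Psmb9 ran from 7.47 to 7.83 with a median of 7.64 in SOL of Ctrl, and from 7.53 to 7.99 with a median of 7.74 in SOL of mKO. In TA it ran from 7.51 to 8.04 with a median of 7.66 in Ctrl, and from 7.61 to 8.23 with a median of 7.76 in mKO. Its differences were 0.090 and 0.085 with adjusted p of 0.307 and 0.269 (limma). Psmb10 ran from 6.90 to 7.66 with a median of 7.28 in SOL of Ctrl and from 7.12 to 7.68 with a median of 7.25 in SOL of mKO. In TA its ranges were 7.45 to 7.93 in Ctrl and 7.43 to 8.06 in mKO, with medians of 7.65 and 7.59. Psmb10 thus had its higher values in TA in both genotypes. Its genotype differences were 0.033 and -0.013.

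The standard counterparts are Psmb6 for Psmb9 and Psmb7 for Psmb10. Psmb6 in SOL ran from 9.80 to 10.20 with a median of 10.06 in Ctrl and from 10.00 to 10.38 with a median of 10.16 in mKO, a difference of 0.10 (limma adjusted p = 0.0841). Psmb7 in SOL ran from 9.81 to 10.19 with a median of 9.96 in Ctrl and from 9.91 to 10.36 with a median of 10.11 in mKO. In TA Psmb7 ran from 10.17 to 10.59 with a median of 10.34 in Ctrl and from 10.18 to 10.49 with a median of 10.37 in mKO. Psmb7 was thus called higher in mKO in SOL and Psmb6 in TA, while their differences between muscles, -0.11 for Psmb7 and 0.062 for Psmb6, were not called (limma adjusted p of 0.332 and 0.670).

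Among the activators, Psme1 stood at 0.11 in SOL and 0.12 in TA (limma adjusted p of 0.189 and 0.0626), Psme2 at -0.013 and -0.054, and Psme3 at 0.012 and -0.055. The inhibitor gene Psmf1 stood at 0.018 and -0.032. Psmg4 stood at 0.13 in SOL and Psmd5 at -0.020 in TA, where neither was called. The chaperone genes Psmd9, Psmd10, Psmg1, Psmg2 and Psmg3 were not called in either muscle, with differences from 0.0021 to 0.15 in SOL and from -0.047 to 0.11 in TA. Psma8 and Psmb11 were not called, at 0.078 and 0.012 in SOL and 0.11 and 0.069 in TA. Psmc3ip and Psme3ip1 stood at -0.11 and -0.033 in SOL and at 0.11 and 0.11 in TA. In the list of 9 measured genes of class I antigen processing, which the immune subunits serve, 0 were called in SOL. In TA Nlrc5, an activator of that pathway, was higher by 0.12 ± 0.036 (limma adjusted p = 0.0156), and the peptide-trimming Erap1 was lower by -0.22 ± 0.042 (adjusted p = 0.000291). Of 7 macrophage and 8 lymphocyte and leukocyte genes, 0 were called by genotype in either muscle. Of all genes, 7.10% were called in SOL and 14.8% in TA, so 0 calls among so few genes do not show unchanged cell content. In TA 6 of the 7 macrophage genes were below 0, with a median of -0.13. There 6 of the 8 lymphocyte and leukocyte genes were above 0, with a median of 0.039.

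More members differed between the muscles than between the genotypes. In Ctrl, 23 of the 49 genes were higher in TA than in SOL and 7 were lower, where 22.9% of all genes were called higher and 20.0% lower. In mKO 23 were higher and 8 lower, against 27.8% and 20.4% of all genes. The lower genes were thus a smaller share of the 49 than of all genes. The constitutive subunits gave 19 of the higher and 3 of the lower genes in Ctrl, with 12 of 17 cap subunits and 7 of 13 core subunits higher. Of the genes called higher in TA, 21 were called in both genotypes (91.3% of each list), and of those called lower, 7 (100% of the Ctrl list and 87.5% of the mKO list). Over all genes the shared calls were 82.9% and 68.3% of the higher lists and 83.4% and 82.0% of the lower lists, so a large overlap was general. The mean of the 30 subunits was higher in TA in 17 of 18 Ctrl animals and in 17 of 18 mKO animals.

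Psme4 had the smallest p. In SOL of Ctrl it ran from 10.65 to 11.02 with a median of 10.87, below each of the TA arrays of Ctrl, and it was higher in TA in 36 of 36 animals. The difference was 0.59 ± 0.032 (n = 18 animals, limma adjusted p = 4.64e-16) in Ctrl, or 51.0%, and 0.53 ± 0.032 (adjusted p = 7.93e-15) in mKO.

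Psmd6, a lid subunit, ran from 10.02 to 10.53 with a median of 10.39 in SOL of Ctrl and from 10.54 to 11.04 with a median of 10.84 in TA of Ctrl. The sets did not overlap, and TA was higher in 36 of 36 animals. The difference of Psmd6 was 0.48 ± 0.045 (limma adjusted p = 1.6e-10) in Ctrl and 0.59 ± 0.045 (adjusted p = 1.03e-12) in mKO.

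Psmd2 ran from 10.90 to 11.17 with a median of 11.01 in SOL of Ctrl and from 11.19 to 11.46 with a median of 11.33 in TA of Ctrl. These sets did not overlap either, and TA was higher in 36 of 36 animals. The difference was 0.31 ± 0.028 (limma adjusted p = 7.4e-11) in Ctrl and 0.42 ± 0.028 (adjusted p = 6.84e-14) in mKO.

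Psma3, Psmd8, Psmb7 and Psmc4 were higher in TA of Ctrl by 0.55, 0.40, 0.36 and 0.33. In mKO, Psmd1, Psmc4, Psmc1, Psmc3 and Psmb6 were higher in TA by 0.40, 0.35, 0.33, 0.33 and 0.31. Not each subunit was higher in TA. Psmb1, a beta subunit, ran from 9.61 to 10.07 with a median of 9.86 in SOL of Ctrl and from 9.31 to 9.69 with a median of 9.43 in TA of Ctrl, and was lower in TA in 36 of 36 animals. Psmb1 was lower by -0.38 ± 0.043 (limma adjusted p = 1.22e-08) in Ctrl and by -0.37 in mKO. Psmb2 and Psmd13 were also lower in TA of Ctrl, by -0.16 and -0.30, as were the chaperone genes Psmd5 and Psmg4, by -0.27 and -0.30, and the activator genes Psme1 and Psme2, by -0.13 and -0.15. Of the immune subunits, Psmb10 was higher in TA by 0.38 ± 0.055 (limma adjusted p = 6.52e-07) in Ctrl and by 0.34 in mKO, while Psmb8 and Psmb9 stood at 0.067 and 0.049 in Ctrl and were not called. Endothelial genes were lower in TA of Ctrl in 5 of 6 cases, macrophage genes in 2 of 7, and the lymphocyte and leukocyte genes in 1 of 8. In Ctrl the endothelial genes summed to between 12.0 and 12.5 in SOL and 11.8 and 12.3 in TA, and their part in these differences was not tested.

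**Figure D4:**
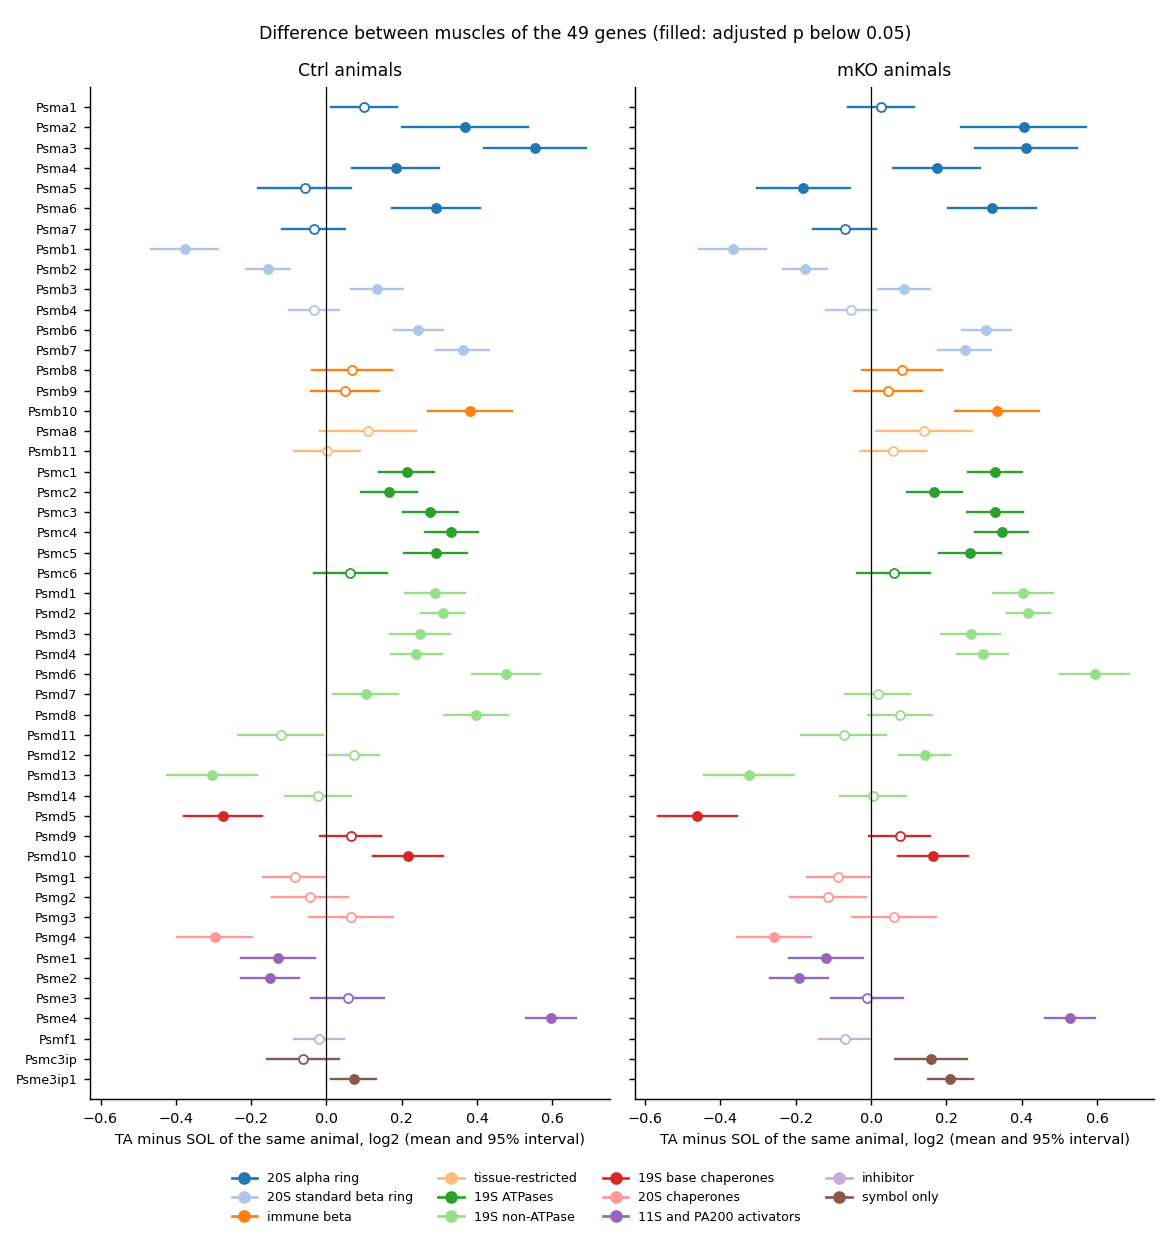
Difference between TA and SOL of the same animal in log2 signal (x axis) for each of the 49 genes (rows, coloured by role) in Ctrl and mKO animals, as the mean over 6 times with its 95% interval; filled points passed the adjusted threshold. Psme4, Psma3 and Psmd6 lie farthest above 0 in Ctrl, Psmd6 and Psme4 in mKO, and Psmb1, Psmd5, Psmd13 and Psmg4 lie below 0 in both.

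The 49 genes showed little daily rhythm by the test of a 24 h cosine. By set, 0 of them passed for SOL of Ctrl, 1 for SOL of mKO, 0 for TA of Ctrl and 0 for TA of mKO (limma, adjusted p under 0.05). Of all genes, 6.05%, 5.68%, 2.70% and 1.76% passed in the same sets. Without adjustment 1, 4, 1 and 1 of the 49 genes had a p under 0.05. The median amplitude, from mean to peak, lay between 0.038 and 0.049 log2 units in the 4 sets, against 0.065 to 0.077 over all genes. The rhythm of 0 members differed between genotypes in SOL or in TA, where 0.0395% and 0.104% of all genes passed, and 1 member in each muscle had an unadjusted p under 0.05.

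The member that passed was Psma5 in SOL of mKO, with an amplitude of 0.31 and a peak at ZT 20.4 (limma adjusted p = 0.0157). Its mKO arrays at ZT20 read 7.46, 7.76 and 7.72, against 6.71, 7.05 and 6.74 in Ctrl, and at the other 5 times the mKO means lay between 6.77 and 7.03. The 3 high arrays are BM2 animals and the Ctrl arrays BM3, and in TA the same mKO animals read 6.41, 7.10 and 6.96. With the series as a term the amplitude was 0.24 and was not called, and among BM3 animals alone it was 0.12. BM3 holds no mKO animal at ZT12 or ZT20, so that fit leaves out the high arrays and cannot check the rhythm. Without mKO ZT20 replicate B or replicate C the call was also lost, with an adjusted p of 0.0840 at most. Psmd5 had an amplitude of 0.17 with a peak at ZT 4.86 in SOL of Ctrl (adjusted p = 0.0583) and of 0.15 with a peak at ZT 1.45 in SOL of mKO (adjusted p = 0.114).

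**Figure D5:**
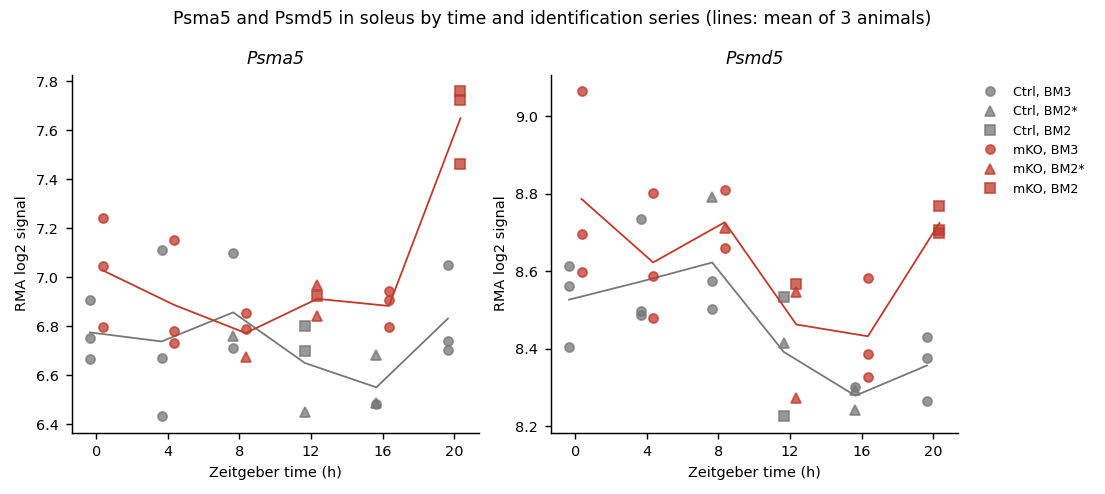
RMA log2 signal (y axis) of Psma5 and Psmd5 in SOL on each array against Zeitgeber time in hours (x axis); colours mark genotype, symbols the identification series, and lines join the means of 3 animals. For Psma5 the 3 mKO arrays at ZT20 stand between 7.46 and 7.76, above all other arrays of that gene in SOL; the mean of Psmd5 is lowest at ZT16 in both genotypes.

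The constitutive subunits also tended to vary together among animals of the same group, beyond what the group means carry. In TA this was weaker in the core than in the cap. After each group's mean was taken off, the correlation between 2 of the 30 subunits had a median of 0.19 over 435 pairs in SOL and 0.16 in TA (36 arrays each). Over all pairs of genes the median was 0.004 in SOL and 0.022 in TA. For the 17 cap subunits the median was 0.21 in SOL and 0.36 in TA, and for the 3 immune subunits 0.40 and 0.45. For the 13 core subunits it was 0.14 and 0.082, and in TA 6.41% of their pairs were above 0.5, against 4.53% of all pairs. Single pairs of constitutive subunits went down to -0.64 in SOL and -0.50 in TA. The subunits nearest to the mean of the other constitutive subunits were Psmc5 and Psmd12 in SOL (0.78 each) and Psmc5 and Psmd14 in TA (0.84 and 0.78), while Psma5 and Psmb3 in TA stood at -0.26 and -0.23. The points of these correlations share arrays and their normalisation, so they are given as a description. The deviation of an animal's mean over the 30 subunits in SOL and in TA correlated at 0.11 across the 36 animals.

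In the rest of the pathway the genotype calls went in both directions in TA. Of 36 listed symbols, some of them synonyms, 22 were measured. In SOL 1 was higher in mKO, Rad23b, which encodes a shuttle of ubiquitylated proteins (0.14 ± 0.041, limma adjusted p = 0.0346), and 0 were lower, which is 4.55% higher against 3.56% of all genes. In TA 4 were higher (18.2%, against 6.76% of all genes) and 2 lower (9.09%, against 8.06%). Ngly1, which encodes the glycanase that processes the factor Nfe2l1, rose by 0.14 ± 0.033 (adjusted p = 0.00326), Akirin2, needed for nuclear import of proteasomes, by 0.092 ± 0.027 (adjusted p = 0.0182) and Nploc4, a cofactor of the segregase Vcp, by 0.10 ± 0.033 (adjusted p = 0.0348). The stress factor gene Nfe2l2 was lower in TA of mKO by -0.21 ± 0.038 (adjusted p = 0.000124) and Uba6, an enzyme that activates ubiquitin, by -0.20 ± 0.050 (adjusted p = 0.00438). Nfe2l1, which encodes the factor known to raise proteasome genes when proteasomes are short, stood at -0.038 in SOL and -0.096 in TA (adjusted p of 0.623 and 0.0615). Between muscles, 9 of the 22 were higher (40.9%, against 22.9% of all genes) and 4 lower (18.2%, against 20.0%) in TA of Ctrl, with Ecpas, a proteasome-binding scaffold, at 0.50 and Nfe2l1 at -0.40.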

How the data were processed

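RNA of both muscles of each animal was hybridised to whole-transcript arrays, 72 in all. The authors deposited log2 signals from RMA normalisation. The submitters' processing notes name RMA and give no version. The table held 21225 probe sets, of which 20239 carried 1 gene symbol in the platform annotation and were tested without a filter. Groups and animals came from the labels. For each muscle, mKO minus Ctrl was averaged over the 6 times and tested on 36 arrays (limma 3.58.1, R 4.3.3). The muscles and the interaction were tested on TA minus SOL within animals, because the labels state that pairing (the deviations of the muscles of an animal correlated at a median of 0.046, over 0.1 in 11 of 36 animals), and rhythm with a cosine and sine of 24 h. Benjamini-Hochberg adjustment covered all genes, and the threshold was 0.05. Scripts were tested on simulated data. Members, gene lists, the rule for naming genes (up to 8 called members per test by smallest p) and the alternatives were chosen with earlier results of these data known. The subunits named as lost calls, as nearest to the mean or as not called, and the plotted Psmd5, were named after their values were seen. The number of arrays limits the precision.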

Additional observations from a re-analysis of the deposited data

Results flagged for a closer look

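The response of Psmd8 to genotype differed between the muscles by a test of the difference itself. The genotype difference in TA minus that in SOL was -0.32 log2 units (limma adjusted p = 0.000844), with mKO higher in SOL at 6 of 6 times and lower in TA at 6 of 6 times. It lay between -0.35 and -0.29 with each of the 36 animals left out in turn, and was called each time. Within BM3 animals it was -0.31 and within BM2 and BM2* animals -0.27, and it was not called in either.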

How the results depend on the processing

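Under the scalings and time omissions tried, 26 to 30 of the 30 constitutive subunits were above 0 by genotype in each muscle, while counts of calls changed. Within BM3 animals, 0 members were higher in SOL, 9 higher and 0 lower in TA, and 1 member was more positive and 0 more negative in TA than in SOL. Within BM2 and BM2* animals, 0 were higher in SOL, 0 higher and 0 lower in TA, and 0 more negative in TA, and between muscles 13 were higher and 3 lower in Ctrl and 15 higher and 2 lower in mKO. Both fits hold fewer animals and use additive terms for genotype and time. The other changes and their causes were not tested further. Array weights gave 1 lower member in SOL, 22 higher in TA, 1 more positive and 3 more negative in TA than in SOL, and 1 rhythmic in TA of Ctrl. Centring each array on its median gave 8 members higher in SOL and 11 in TA, and quantile normalisation gave 16 and 17. Quantile normalisation also gave 1 lower in SOL, 1 more positive in TA, and 1 and 2 rhythmic in SOL of Ctrl and mKO. Testing only genes above the median level gave 1 lower in SOL, 1 more positive and 1 rhythmic in SOL of Ctrl, and a trended robust fit 1 lower and 1 rhythmic there. The member called lower in SOL was Psme4 each time, and the one called rhythmic in SOL of Ctrl was Psmd5. The series as a term gave 1 more positive member, and 0 rhythmic in SOL of mKO. BM3 animals alone also gave 0 rhythmic there, in a fit without mKO animals at ZT12 and ZT20. A fit with time as a factor was not read out for the members and gives no count. The additive model gave 2 more positive members, Psmc3ip and Psme3ip1. Each member gained as more positive in the fits of this section was Psmc3ip or Psme3ip1. These encode no subunit, activator, inhibitor or assembly chaperone of the proteasome. Animals of the same replicate letter differ between the genotypes, so the letter was not a block in the main fits. Same-lettered deviations still correlated at a median of 0.15, over 0.1 in 21 of 36 cases. For the muscles of an animal these values were 0.046 and 11 of 36. What a shared letter stands for was not tested. A replicate block gave 1 member lower in SOL and 1 rhythmic in SOL of Ctrl. Dropping the pairing of muscles gave 1 more positive member. With each animal left out in turn, members higher in mKO numbered from 8 to 14 in SOL and from 14 to 17 in TA. The other counts ran from 0 to 1 for members lower in SOL and 0 to 2 for more positive ones. For rhythm they ran from 0 to 1 in SOL of Ctrl and 0 to 2 in SOL of mKO. With 1 time left out, added after seeing the data, members higher in SOL numbered 7 without ZT4, 6 without ZT8, 5 without ZT16 and 4 without ZT20, and 1 member was lower without ZT12. Over 46 results for single genes, 631 of 728 alternatives kept the call, 97 lost it and 0 changed sign. This pool mixes unlike tests. Each TA minus SOL result in Ctrl or mKO, picked by the 8 smallest p, kept its call in 16 of 16 alternatives. The genotype calls were less stable. A call in SOL was lost in 2 to 8 of 16 alternatives, and a call in TA in 1 to 4 of 16.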
